A study of Mus musculus with 2 samples.

Results

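The genes described here are 8 components of the secondary and tertiary granules of neutrophils: Lcn2, Ltf, Camp, Ngp, Mmp8, Mmp9, Fcnb and Abca13. They were chosen by name, and each was found under its symbol among the 33696 genes of both count matrices. The data are single-cell RNA counts from live cells sorted from the lungs of adult mice on the C57BL6/J background. The first library carries the label GFI1 KO, a germline deletion of Gfi1 in every cell of the mouse. The second carries the label GFI1 WT, a mouse with intact Gfi1. No further treatment was labelled. With 1 mouse and 1 library per genotype, the genotype cannot be told apart from the mouse or the library, and no test of the genotype was possible. Values are therefore given side by side as UMIs (unique molecular identifiers, each a captured RNA molecule). Levels are given in CPM, in which the UMIs of a class are scaled to the same total in both libraries, and the brackets hold exact 95% intervals that cover counting error only.

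Neutrophils build their granules in succession as they mature in the bone marrow. Primary granules with elastase and myeloperoxidase are filled in promyelocytes, secondary granules in myelocytes and metamyelocytes, and gelatinase-rich tertiary granules in band cells. The messages for granule proteins are largely shut off before the mature cell enters the blood, so a granule transcript marks a stage as well as a lineage. GFI1 is a zinc finger repressor of transcription that neutrophil differentiation requires, and C/EBPε is the activator best known for switching on the secondary granule genes. Lcn2 encodes lipocalin 2, which binds the siderophores with which bacteria take up iron. Ltf encodes lactoferrin, which binds iron itself. Camp encodes the cathelicidin precursor of an antimicrobial peptide, and Ngp encodes neutrophilic granule protein, a relative of the cystatins. Mmp8 and Mmp9 encode neutrophil collagenase and gelatinase B. Fcnb encodes ficolin B, a lectin that recognises microbial sugars, and Abca13 encodes a large lipid transporter of the ABC family.

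Promoter sequences were available for 7 of the 8 genes, which leaves out Mmp9. They are RefSeq sequences of build GRCm38.p6 and span 250 bases before to 50 bases after the annotated start, whereas the counts were made on GRCm39. The letters AAATCAC, the core of the GFI1 site, were searched on both strands, as was the C/EBP pattern TTNNGNAA, in which N is any base. Capitals mark the matches. Lcn2 and Mmp8 are shown because they carried most of the members' UMIs under the GFI1 KO label, and Ltf and Camp because they did not. Lcn2 (minus strand) is at chr2:32387690-32387989, Mmp8 (plus strand) at chr9:7558179-7558478, Ltf (plus strand) at chr9:111019042-111019341 and Camp (minus strand) at chr9:109849407-109849706. Each sequence is written 5′ to 3′ on the strand of its gene.
Lcn2: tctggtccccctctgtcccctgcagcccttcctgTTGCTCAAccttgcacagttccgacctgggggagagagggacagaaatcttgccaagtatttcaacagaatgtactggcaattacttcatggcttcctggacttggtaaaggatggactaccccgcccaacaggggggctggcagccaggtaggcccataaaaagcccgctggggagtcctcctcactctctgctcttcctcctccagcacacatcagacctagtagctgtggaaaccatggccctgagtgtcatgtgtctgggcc
Mmp8: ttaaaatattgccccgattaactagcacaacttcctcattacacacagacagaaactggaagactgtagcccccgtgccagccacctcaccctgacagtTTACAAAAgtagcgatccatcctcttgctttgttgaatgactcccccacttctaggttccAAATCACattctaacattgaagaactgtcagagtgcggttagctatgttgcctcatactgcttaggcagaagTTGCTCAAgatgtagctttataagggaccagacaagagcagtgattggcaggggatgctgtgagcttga
Ltf: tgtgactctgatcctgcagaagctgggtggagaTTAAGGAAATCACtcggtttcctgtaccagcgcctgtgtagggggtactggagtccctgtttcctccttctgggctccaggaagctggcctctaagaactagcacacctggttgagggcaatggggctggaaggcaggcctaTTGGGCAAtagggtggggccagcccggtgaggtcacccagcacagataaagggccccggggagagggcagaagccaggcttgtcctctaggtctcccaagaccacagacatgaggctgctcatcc
Camp: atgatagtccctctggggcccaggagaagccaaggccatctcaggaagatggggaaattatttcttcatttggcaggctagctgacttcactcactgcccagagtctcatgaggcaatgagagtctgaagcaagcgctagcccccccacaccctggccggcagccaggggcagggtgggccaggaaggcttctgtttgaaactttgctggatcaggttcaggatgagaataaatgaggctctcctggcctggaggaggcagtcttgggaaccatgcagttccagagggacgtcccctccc
The GFI1 core was found in 2 of the 7 promoters, those of Ltf and Mmp8, and in 1050 of all 32851 promoters of this length (3.20%). The C/EBP pattern was found in 6 of the 7, all but Camp, and in 13365 of all promoters (40.7%). In the Ltf promoter the GFI1 core overlaps a C/EBP match. Lcn2 has 1 C/EBP match, Ltf 2, Ngp 3, Mmp8 2, Fcnb 2 and Abca13 1. Lcn2 and Mmp8, which had the highest levels under the GFI1 KO label, thus differ in the presence of the GFI1 core, and so do Ltf and Camp. A match is a description of letters and not a site of binding.

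After filtering, the GFI1 KO library held 10495 cells with a median of 11076 UMIs, and the GFI1 WT library 19342 cells with a median of 6217. The libraries shared 74 cell barcodes. Cells were clustered without the members, and clusters were named from marker genes, so each name carries "-like". Neutrophil-like cells numbered 8 under the GFI1 KO label (0.0762% of cells [0.0329 to 0.150]) and 1427 under the GFI1 WT label (7.38% [7.01 to 7.76]). Classical monocyte-like cells numbered 4369 (41.6% [40.7 to 42.6]) and 267 (1.38% [1.22 to 1.55]). Gfi1 RNA did not check the labels, since it reached 3.60 CPM in the GFI1 KO and 3.47 CPM in the GFI1 WT library, a ratio of 1.04 [0.901 to 1.2]. The part of the gene that was deleted is not given in the sources used here, and a 3′ tag from a transcript that remains would still be counted.

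Across all cells the 8 genes fell into 3 patterns (plot of levels by cell class). Lcn2, Mmp8, Fcnb and Abca13 were higher in the GFI1 KO library, Mmp9, Ltf and Camp were higher in the GFI1 WT library, and Ngp was at nearly the same level in both as long as 1 GFI1 WT droplet was counted. Lcn2 had 302 CPM against 29.8 CPM, a ratio of 10.1 [9.80 to 10.5]. Mmp8 had 183 CPM against 32.0 CPM, a ratio of 5.72 [5.53 to 5.91]. Lcn2 and Mmp8 together carried most of the members' counts in the GFI1 KO library, with 28518 and 17263 of 49567 UMIs. Fcnb and Abca13 were rarer, at 11.8 and 12.3 CPM under the GFI1 KO label, but almost lacking in the GFI1 WT library. Fcnb had 16 UMIs there against 1118, a ratio of 100.3 [61.5 to 176], and Abca13 had 101 against 1165, a ratio of 16.6 [13.5 to 20.5]. Mmp9 went the other way, at 2.18 CPM under the GFI1 KO and 42.1 CPM under the GFI1 WT label, or 19.3-fold higher [16.8 to 22.3] in the latter. Ltf was 7.21-fold higher [6.30 to 8.30] and Camp 3.52-fold higher [3.08 to 4.03] in the GFI1 WT library. Ngp had 801 and 1094 UMIs, a ratio of 1.05 [0.958 to 1.15]. Most of the Camp and Ngp UMIs of the GFI1 WT library lay in 1 droplet called a doublet, and most of its Ltf in epithelial-like cells. Without that droplet the ratio of Ngp was 5.65 and that of Camp 2.93, both higher under the GFI1 KO label, and that of Fcnb, with 7 of its 16 GFI1 WT UMIs there, was 169. Without called doublets the ratio of Fcnb was 196.

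Among the 16315 genes with at least 30 UMIs, 3.18% were at least 2-fold higher and 25% at least 2-fold lower under the GFI1 KO label. Of the 8 members, 4 were at least 2-fold higher and 3 at least 2-fold lower, which became 6 higher and 2 lower without the droplet or without called doublets. Their median with all cells log2 ratio was 1.29 against -0.37 for all these genes. In a whole library a level follows the numbers of each cell type as well as the RNA per cell, so the members are described next within cell classes.

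**Figure D1:**
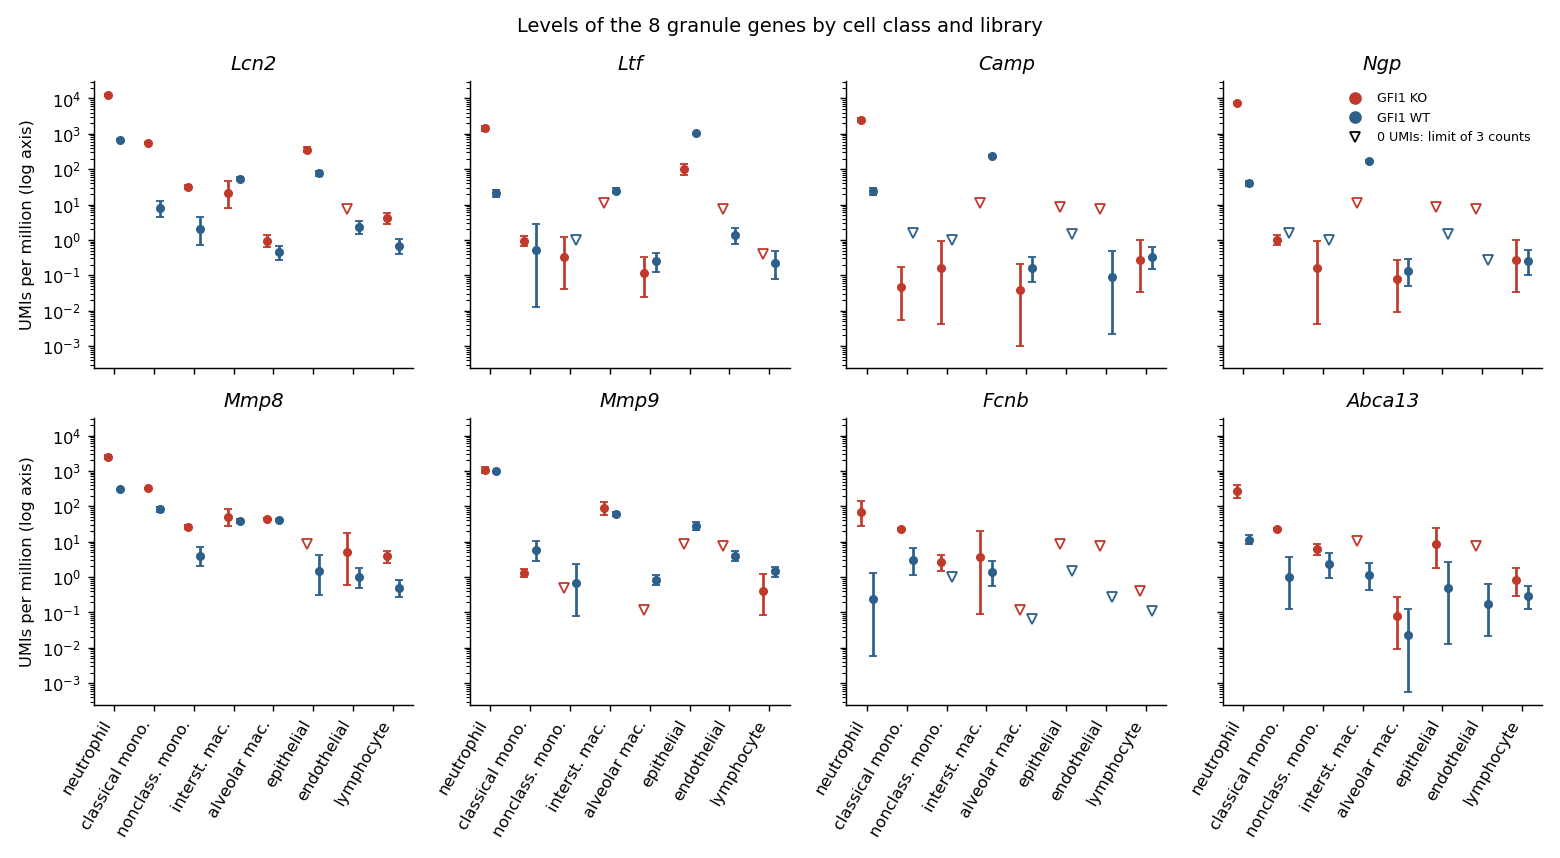
Level of each member (CPM, log axis) in the cell classes of the GFI1 KO and GFI1 WT libraries, with exact 95% counting intervals and open triangles at the limit of 3 counts where no UMI was found. Lcn2 reached 566 CPM in GFI1 KO classical monocyte-like cells and 7.78 CPM in the GFI1 WT ones, while both libraries had their highest Lcn2 in neutrophil-like cells (12617 and 680 CPM).

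The same genes came from different cells in the 2 libraries. Classical monocyte-like cells gave 85.6% of the Lcn2, 83.5% of the Mmp8, 90.1% of the Fcnb and 82.7% of the Abca13 UMIs of the GFI1 KO library. In the GFI1 WT library 71.1% of the Lcn2 UMIs came from neutrophil-like cells and 0.371% from classical monocyte-like cells. For Mmp9 and Ltf the classical monocyte-like share was 27.2% and 17.8% in the GFI1 KO library and 0.192% and 0.0420% in the GFI1 WT library. The class held 41.6% of GFI1 KO and 1.38% of GFI1 WT cells, so each of these Mmp9 and Ltf shares was below its share of cells. Camp and Ngp of the GFI1 KO library came mainly from the 8 neutrophil-like cells, which held 254 of 266 and 752 of 801 UMIs (plot of sources).

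**Figure D2:**
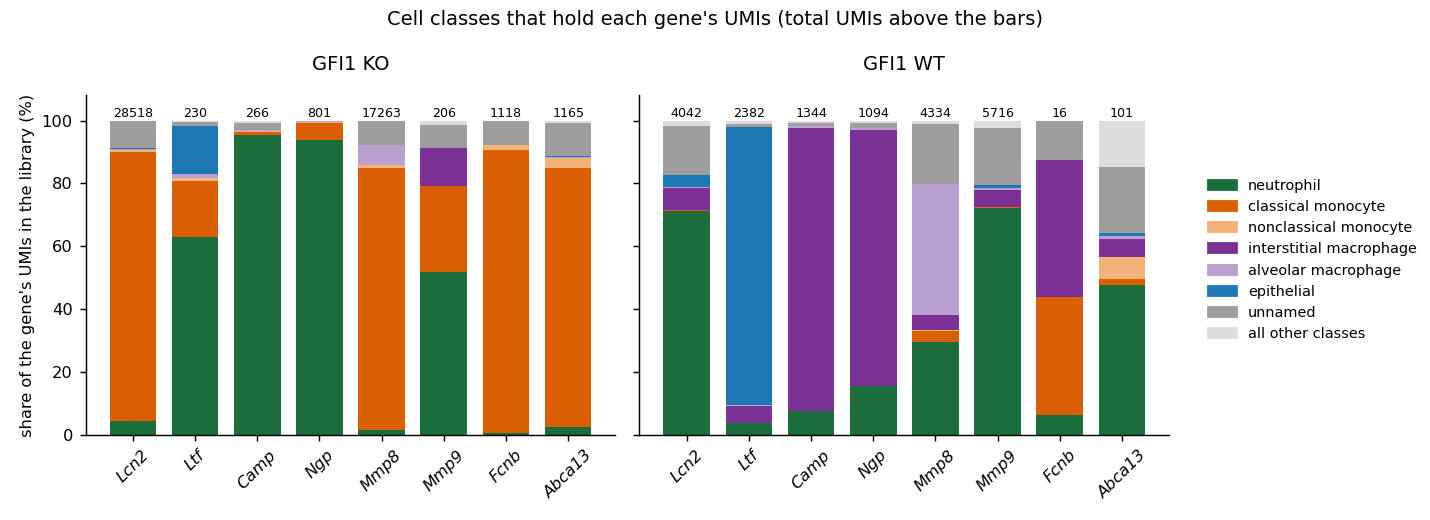
Percent of each member's UMIs that came from each cell class, per library. Classical monocyte-like cells make up most of the Lcn2, Mmp8, Fcnb and Abca13 bars of the GFI1 KO library, and epithelial-like cells give 88.3% of Ltf in the GFI1 WT library.

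Classical monocyte-like cells are named after the Ly6c2- and Ccr2-expressing monocytes that leave the marrow and enter inflamed tissue. The class joined 2 clusters. The larger (4329 GFI1 KO and 242 GFI1 WT cells) had all 8 classical monocyte markers and 4 of 10 neutrophil markers raised. Its leading genes were Saa3, Vcan, Prtn3 and F13a1, followed by others that included the granule gene Cd177 and the member Fcnb. The smaller (40 and 25 cells) was led by Ifit genes. Within this class, Lcn2 was almost lacking in 1 library and abundant in the other. It had 24421 UMIs (566 CPM) in the GFI1 KO and 15 UMIs (7.78 CPM) in the GFI1 WT cells, 72.8-fold higher [44.1 to 130] under the GFI1 KO label. Mmp8 was present under both labels, at 334 CPM and 83.5 CPM, a ratio of 4.0 [3.42 to 4.70]. The collagenase was thus a transcript of GFI1 WT classical monocyte-like cells too, with 91 of 267 cells holding a UMI. Fcnb had 23.3 CPM against 3.11 CPM, a ratio of 7.50 [3.43 to 20.5]. Abca13 had 964 UMIs against 2, a ratio of 21.5 [5.95 to 178]. The GFI1 WT values of Fcnb and Abca13 rest on 6 and 2 UMIs. When members and other granule genes were allowed in the clustering, the class shrank to 2994 and 36 cells and the log2 ratio of Mmp8 from 2.0 to 0.89. That of Lcn2 lay between 5.19 and 6.48 under the 9 alternatives that gave a value.

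The other members did not follow. The gelatinase Mmp9 was 4.39-fold higher [2.08 to 8.48] in the GFI1 WT cells, at 5.70 CPM against 1.30 CPM. The GFI1 WT value rests on 11 UMIs in 5 of 267 cells, 5 of them in the highest cell. The GFI1 KO value rests on 56 UMIs in 19 of 4369 cells. Lymphocyte-like cells had 1.45 CPM of Mmp9 in the GFI1 WT and 0.410 CPM in the GFI1 KO library. Lactoferrin, usually transcribed in the same precursors as lipocalin 2, had 41 UMIs among 4369 GFI1 KO cells and 1 UMI in the GFI1 WT cells. Camp had 2 UMIs and none, and Ngp had 44 UMIs and none, 40 of the 44 in 1 cell. In these monocyte-like cells Lcn2 and Mmp8 were therefore present without appreciable Ltf, Camp or Ngp. Of 11431 genes with enough counts, 7.31% were at least 2-fold higher and 6.46% at least 2-fold lower under the GFI1 KO label. Of the 7 members with enough counts, 5 were at least 2-fold higher and 1 was lower. Ngp is among the 5 by the added 0.5 UMI alone, since its 1.02 CPM under the GFI1 KO label is below the 1.56 CPM that 3 UMIs would give in the GFI1 WT cells, so no direction is read for it. Camp was the member left out. The limit of 30 UMIs holds for both libraries together, so a gene nearly lacking in 1 of them passed through the other. The median log2 ratio of the 7 was 2.0 against 0.04 for all these genes.

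Of the neutrophil markers, S100a8 and S100a9 were higher beside these genes and most others were not. The 10 neutrophil markers summed to 6578 CPM in GFI1 KO and 1761 CPM in GFI1 WT classical monocyte-like cells, against 263 and 318 CPM in lymphocyte-like cells and 101791 CPM in GFI1 WT neutrophil-like cells. No marker of the list was at 0. S100a8, a calprotectin subunit, was 16.5-fold higher and S100a9, its partner, 7.77-fold higher in the GFI1 KO cells, whereas Retnlg, a marker of mature neutrophils, was at 1.58 CPM against 33.7 CPM. Of the 10, 2 were at least 2-fold higher, 1 lower and 7 between, with a median log2 ratio of 0.03 against 0.04 for all genes. The 8 classical monocyte markers were at 6270 and 7750 CPM summed, with 1 lower by at least 2-fold and none higher. The 10 granulocyte-monocyte precursor markers summed to 265 CPM in the GFI1 KO and 36.3 CPM in the GFI1 WT cells, most of the former from Prtn3. Before thinning, any of them was found in 73.6% and 21.3% of cells. In lymphocyte-like cells they summed to 21.9 and 18.5 CPM. The surface protein Ly6G, which marks neutrophils, had a median of 1 antibody tag UMI in both. Tags of 30 or more were found in 4 of 4369 GFI1 KO cells (0.0916%) and 7 of 267 GFI1 WT cells (2.62%). No neutrophil-like cell of the GFI1 KO library reached 30 either, so that limit does not tell the classes apart there. Below it the classes differed. The 8 GFI1 KO neutrophil-like cells had 5 to 20 tag UMIs (median 11). The GFI1 KO classical monocyte-like cells had an upper quartile of 2, with a highest value of 44. The median of the Ly6G tag was 1 whether a GFI1 KO classical monocyte-like cell held 0, 1, 2 or at least 3 members. In the 2 clusters of this class 0.0219% and 0% of cells were called doublets, so leaving these out could hardly change its level. Clustering anew without called doublets gave a class of 3507 and 142 cells. The members' sum there had a log2 ratio of 3.05 in place of 3.22. The part of free neutrophil RNA in these levels was not tested.

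How many classical monocyte-like cells held a member was counted after each cell had been thinned to 1500 UMIs, because the GFI1 KO cells were deeper (median 11893 against 8798 UMIs). Lcn2 was then detected in 30.1% [28.7 to 31.5] of 4366 GFI1 KO cells and in 2 of 267 GFI1 WT cells (0.749%). Mmp8 was detected in 28.6% [27.3 to 30] and 8.24% [5.24 to 12.2]. Without thinning the shares were 66.9% and 3.37% for Lcn2, and 75.2% and 34.1% for Mmp8. Lymphocyte-like cells, which should lack both genes, gave thinned Lcn2 shares of 0.433% under the GFI1 KO and 0.0282% under the GFI1 WT label, at median depths of 4600 and 4612 UMIs. The GFI1 KO share in monocyte-like cells was thus far above this background. Fcnb and Abca13 were detected in 2.52% and 1.99% of the thinned GFI1 KO cells. In the GFI1 WT cells Fcnb was seen in 1 cell. Camp was detected in none of the GFI1 KO cells, and Ltf and Mmp9 in 0.0916% and 0.115%.

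**Figure D3:**
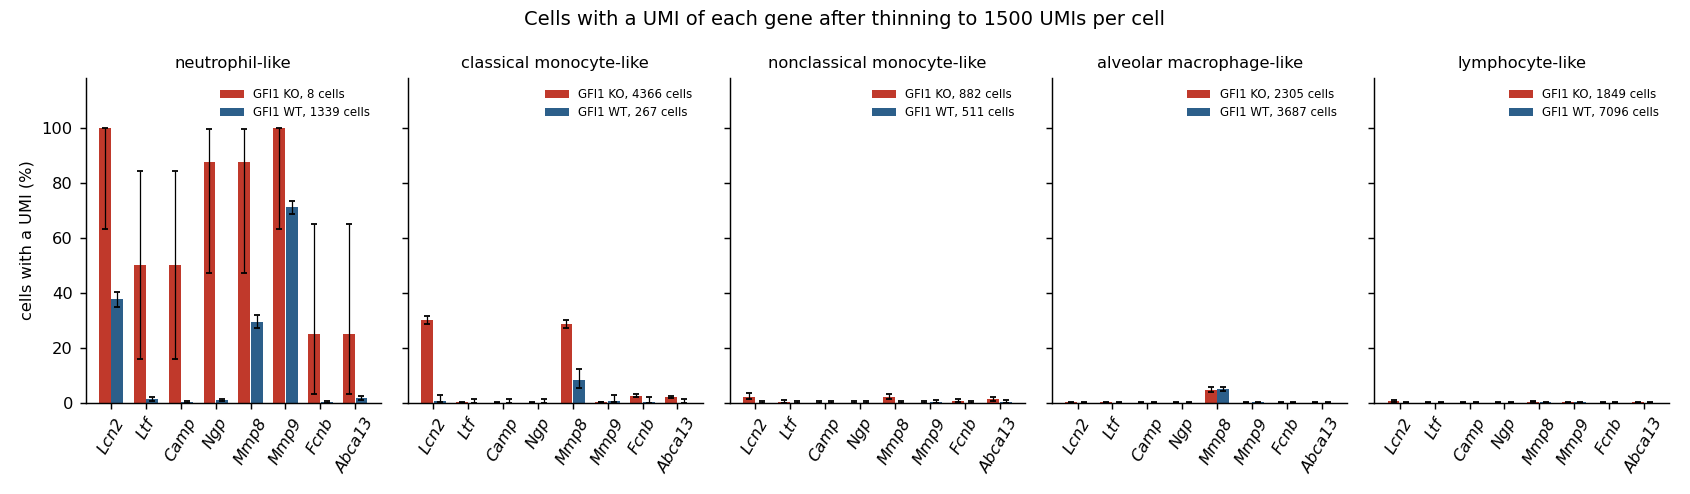
Percent of cells with at least 1 UMI of each member after thinning to 1500 UMIs a cell, by class and library, with exact 95% binomial intervals. Lcn2 and Mmp8 stand at 30.1% and 28.6% in GFI1 KO classical monocyte-like cells, and Mmp8 at 4.64% and 4.80% in alveolar macrophage-like cells.

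Lcn2 was spread unevenly over the GFI1 KO classical monocyte-like cells. The median cell had 2 Lcn2 UMIs, the highest 437 cells held 56.9% of them, and the highest cell had 189. Mmp8 had the same median of 2 UMIs but was more even, with 38.0% in its highest 437 cells. Lcn2 was found together with the other frequent members. Thinned cells with a Lcn2 UMI (1314) also held Mmp8 in 37.8% [35.2 to 40.5] of cases, and those without (3052) in 24.7% [23.2 to 26.2]. Fcnb was found in 4.26% and 1.77%, and Abca13 in 4.34% and 0.983%. Between cells with and without a Mmp8 UMI the intervals overlapped: Fcnb was found in 3.12% [2.23 to 4.24] and 2.28% [1.78 to 2.87], and Abca13 in 2.64% [1.82 to 3.69] and 1.73% [1.30 to 2.26]. Cells of 1 mouse are not replicates, so these shares describe this library.

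The cells with a Lcn2 UMI after thinning also differed in genes outside the list (plot of the Lcn2 split). Here "with" and "without" refer to the 1314 and 3052 thinned cells. Before thinning, 2922 of 4369 cells held a Lcn2 UMI, so many cells counted as without it do hold Lcn2. On the CPM scale of the thinned counts, S100a9 was at 4333 CPM with and 126 CPM without Lcn2, 34.4-fold higher [31.6 to 37.5], and S100a8 at 5606 and 449 CPM, 12.5-fold higher [11.9 to 13.1]. Cxcr2, the chemokine receptor of neutrophils, was 10.6-fold higher [5.43 to 22.5], at 25.4 against 2.40 CPM. The other neutrophil markers shown differed less, with ratios between 1.11 (Clec4d) and 1.60 (Hdc). Among genes of earlier stages, Elane, neutrophil elastase, had a ratio of 2.32 [1.38 to 3.92], Prtn3, proteinase 3, of 1.5 [1.32 to 1.70], and Cebpe of 1.93 [1.26 to 2.93]. Prss57 had 4 UMIs with and 0 without Lcn2. Other primary granule genes had intervals that include 1: Serpinb1a 1.32 [0.980 to 1.77], Ctsg 1.16 [0.358 to 3.34], Ctsc 0.996 [0.941 to 1.05] and Cd63 0.641 [0.253 to 1.44]. Of the other regulators, Cebpa had a ratio of 0.832 [0.633 to 1.08] and Runx1 of 0.884 [0.824 to 0.948]. The classical monocyte markers went both ways, with ratios between 0.760 [0.698 to 0.826] (Csf1r) and 1.25 [1.17 to 1.34] (Vcan). Ly6c2 had a ratio of 1.22 [1.14 to 1.30]. F13a1 was also above 1, and Ccr2, Ms4a6c, Fn1 and Ms4a4c were below 1. Retnlg had 7 UMIs with and 0 without Lcn2. The CD11b antibody tag, present on both lineages, had a median of 767 UMIs in cells with no member, 822 with 1, 912.5 with 2 and 918 with at least 3.

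**Figure D4:**
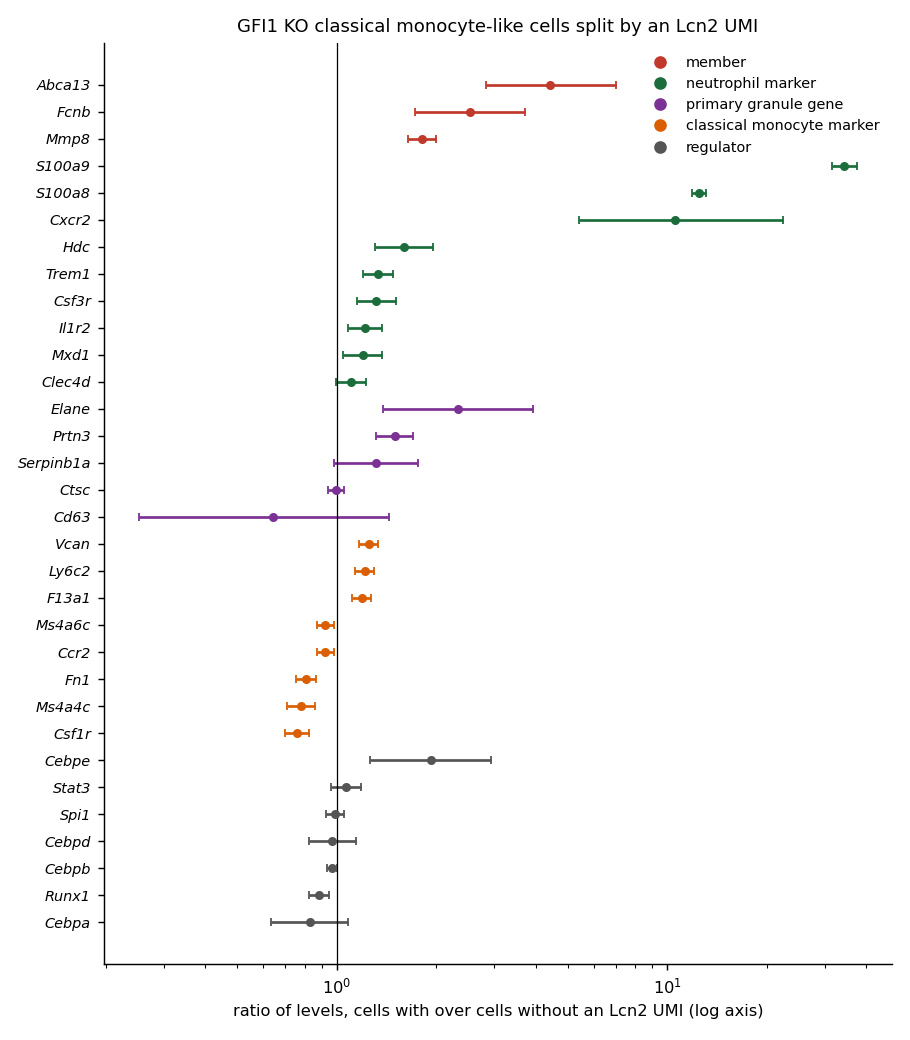
Ratio of each gene's level in thinned GFI1 KO classical monocyte-like cells with a Lcn2 UMI to that in cells without (log axis), with exact 95% counting intervals. S100a9 and S100a8 have the ratios 34.4 and 12.5, and Csf1r lies below 1 at 0.760.

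The neutrophil-like cells of the GFI1 KO library were few and rich in granule transcripts. The 8 cells had 28021 CPM of the members in sum, against 2055 CPM in the 1427 GFI1 WT cells, 13.6-fold higher [13.1 to 14.2]. Lcn2 had 12617 against 680 CPM, a ratio of 18.6 [17.4 to 19.8]. Over all these cells, Ngp, Camp and Ltf, which mark the myelocyte and metamyelocyte stages, had larger ratios than Lcn2. For Ltf and Camp this order changed in alternatives given below. Ngp had 7512 against 40.5 CPM (186 [157 to 221]), Camp 2537 against 23.7 CPM (107 [84.8 to 137]) and Ltf 1448 against 20.8 CPM (69.6 [53.0 to 91.7]). Abca13 was 23.8-fold higher [14.2 to 38.8] and Mmp8 8.28-fold higher [7.20 to 9.49]. Mmp9 differed least, at 1069 and 977 CPM, a ratio of 1.09 [0.894 to 1.33]. Fcnb had 7 UMIs against 1.

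These sums came from cells that differed among themselves. Per 10000 UMIs, the 8 GFI1 KO cells held between 73.4 and 663 member UMIs, with a median of 170. GFI1 WT cells had a median of 15.3, and 95% of them had fewer than 45.5, although the highest reached 643. All 8 GFI1 KO cells lay above that 95% limit for the sum and for Lcn2, 7 for Ngp, Mmp8 and Abca13, 5 for Ltf and Camp, and none for Mmp9. For Ltf, Camp, Ngp and Abca13 that limit was 0, so any UMI placed a cell above it. Single GFI1 WT cells nevertheless reached the same height: the highest had 75.7 of Ltf, 153 of Camp and 234 of Ngp per 10000 UMIs, against 72.6, 91.2 and 228 in the highest GFI1 KO cells. For Lcn2 the highest GFI1 WT cell had 114 and the highest GFI1 KO cell 219. The cell with the most member UMIs held 365 of Lcn2, 121 of Ltf, 152 of Camp and 379 of Ngp among 16659 UMIs. It also held 282 UMIs of Retnlg, a marker of mature neutrophils. At the other end, 1 cell of 7661 UMIs held 33 of Lcn2, 17 of Mmp8, 8 of Mmp9 and no other member. Across the 8 cells Retnlg had between 1 and 282 UMIs, and no cell held a UMI of Elane or Mpo. The stage of these cells was not tested. No neutrophil-like cell of the GFI1 KO library was called a doublet. Without the cell with the most member UMIs, the log2 ratio of Ltf went from 6.12 to 3.8. That of Camp went from 6.74 to 5.68, of Ngp from 7.53 to 6.77 and of Lcn2 from 4.21 to 3.97. Ltf was then below Lcn2. Against the 95 GFI1 WT cells with at least 5000 UMIs, the log2 ratios of Ltf, Camp and Ngp were 4.06, 4.04 and 4.98. That of Abca13 went from 4.58 to 6.79. That of Lcn2 was 4.22, above those of Ltf and Camp. In cells chosen by Csf3r, Cxcr2 and Retnlg, the log2 ratios of Ltf, Camp, Ngp and Lcn2 were 7.47, 10.6, 10.2 and 4.57.

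**Figure D5:**
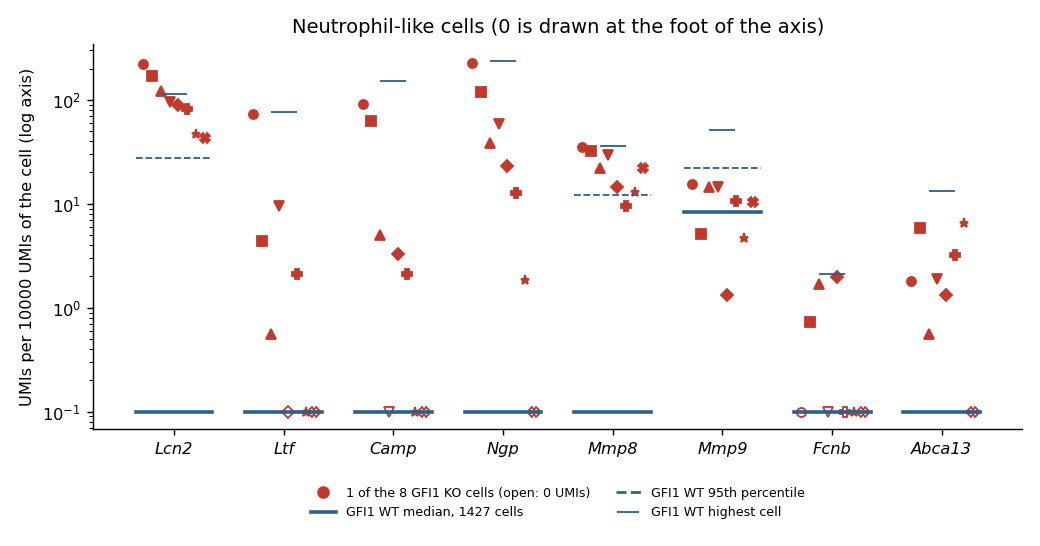
Member UMIs per 10000 UMIs in each of the 8 GFI1 KO neutrophil-like cells beside the median, the 95% limit and the highest of the 1427 GFI1 WT cells (log axis, with 0 drawn at its foot). All 8 GFI1 KO cells lie above the 95% limit for Lcn2 and none does for Mmp9.

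In the GFI1 WT neutrophil-like cells the members differed widely in frequency. Mmp9 was detected in 86.5% of cells, Lcn2 in 47.3% and Mmp8 in 40.5%, before thinning and at a median of 2940 UMIs. Ltf was detected in 2.31%, Ngp in 0.981% and Camp in 0.280%. The GFI1 KO cells were deeper, at a median of 14458 UMIs, and their Ly6G tag was low, with a median of 11 UMIs (5 to 20) against 243. Their CD11b tag had a median of 804 UMIs against 965. Of 6072 genes with enough counts, 19.1% were at least 2-fold higher and 25.8% at least 2-fold lower in the GFI1 KO cells. Of 7 members with enough counts, 6 were at least 2-fold higher and none lower, with a median log2 ratio of 4.58 against -0.13. The 10 neutrophil markers went both ways, with 3 higher, 4 lower and 3 between, and a median log2 ratio of -0.93. The 10 granulocyte-monocyte precursor markers summed to 150 CPM on 15 UMIs in the GFI1 KO cells, with 7 at 0. In the GFI1 WT cells they summed to 31.9 CPM, with 4 at 0.

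Nonclassical monocyte-like cells, the patrolling monocytes of the vessel wall, held less of the members in the same direction. Lcn2 had 32.1 CPM in 914 GFI1 KO cells and 2.01 CPM in 529 GFI1 WT cells, a ratio of 16.0 [7.20 to 44.0]. Mmp8 had 26.1 and 4.02 CPM, a ratio of 6.49 [3.61 to 12.8], and Abca13 6.14 and 2.34 CPM, a ratio of 2.62 [1.15 to 6.97]. Fcnb had 16 UMIs against none, at least 2.65-fold higher when set against 3 UMIs. In the GFI1 KO library these levels were below those of the classical cells, and in the GFI1 WT library Abca13 was not (2.34 against 1.04 CPM, on 7 and 2 UMIs). Of 9469 genes with enough counts, 2.89% were at least 2-fold higher and 2.04% lower under the GFI1 KO label. Of the members, 3 had enough counts (Lcn2, Mmp8 and Abca13), each at least 2-fold higher, and the other 5 had too few UMIs to be counted.

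Macrophages separated Mmp8 from Lcn2. Alveolar macrophage-like cells, which line the air spaces, had 42.8 CPM of Mmp8 in 2312 GFI1 KO and 40.6 CPM in 3702 GFI1 WT cells, a ratio of 1.05 [0.978 to 1.14]. They gave 41.8% of the Mmp8 UMIs of the GFI1 WT library. After thinning, Mmp8 was detected in 4.64% and 4.80% of them, and Lcn2 in 1 cell of each library. Interstitial macrophage-like cells had Mmp9, at 90.1 and 60.6 CPM, a ratio of 1.49 [0.947 to 2.24] that rests on 27 GFI1 KO cells.

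Most lactoferrin counts of the GFI1 WT library came from epithelial-like rather than myeloid cells. Epithelial-like cells, led by the secretory genes Bpifa1 and Scgb3a1, held 2104 of its 2382 Ltf UMIs (88.3%), and the 5 cells with the most Ltf held 55.5% of all of them. Ltf was at 1037 CPM in 146 GFI1 WT cells and at 99.7 CPM in 38 GFI1 KO cells, 10.4-fold higher [7.45 to 15] under the GFI1 WT label. The GFI1 KO epithelial-like cells were shallower, with a median of 2631 UMIs against 10951. Lcn2, which airway epithelium also makes, went the other way, at 359 against 75.9 CPM, a ratio of 4.73 [3.71 to 6.02]. It had 126 UMIs in 11 GFI1 KO cells and 154 UMIs in 30 GFI1 WT cells. A tag of 30 or more for CD45, a surface protein of leukocytes, was found in 5 of 38 and 25 of 146 epithelial-like cells. The part of leukocyte RNA in these levels was not tested.

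Camp and Ngp of the GFI1 WT library were concentrated in 1 droplet. It held 1214 of 1344 Camp UMIs (90.3%) and 891 of 1094 Ngp UMIs (81.4%), with 277 of Lcn2, 126 of Ltf and 7 of Fcnb, among 23240 UMIs. It lay in the interstitial macrophage-like cluster and was called a doublet, with 75 UMIs of the macrophage gene C1qa. It also held 13 UMIs of Cebpe, 11 of the proliferation gene Mki67, 1680 of S100a8 and no Mmp8. Its Ly6G tag had 100 UMIs. Without the droplet, Camp in all cells was higher under the GFI1 KO label, with a log2 ratio of 1.55 in place of -1.81, and that of Ngp was 2.50 in place of 0.07.

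Cells that should lack the members gave the background. In lymphocyte-like cells the members summed to 9.70 CPM under the GFI1 KO and 3.73 CPM under the GFI1 WT label, a ratio of 2.60 [1.89 to 3.55]. Lcn2 was at 4.10 and 0.689 CPM, Mmp8 at 3.82 and 0.508 CPM and Mmp9 at 0.410 and 1.45 CPM. The library with the higher background of Lcn2, Mmp8 and Mmp9 was thus the one with more of that gene in all its cells. Fcnb had no UMI in lymphocyte-like cells of either library. With endothelial-like cells added, the sums were 9.46 and 5.24 CPM, a ratio of 1.81 [1.36 to 2.37]. GFI1 WT classical monocyte-like cells had 7.78 CPM of Lcn2, which is above this background, and 0.518 CPM of Ltf, which rests on 1 UMI.

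Cells with at least 3 of the 8 members, after thinning to 1500 UMIs, were at 0.674% [0.526 to 0.851] under the GFI1 KO and 0.729% [0.613 to 0.861] under the GFI1 WT label. Without thinning they were 9.36% and 2.23%, and thinned to 3000 UMIs they were 2.01% and 1.18%. For at least 2 members the shares were 6.01% and 3.45%, and for at least 4 members 0.116% and 0.0423%, so the near equality holds for this depth and number of members. The cells were of different classes. In the GFI1 WT library 134 of 1339 thinned neutrophil-like cells (10.0%) held at least 3 members, and none of 267 classical monocyte-like cells did, which allows a share of up to 1.12% by the limit of 3 counts and up to 1.37% by the exact 95% interval. In the GFI1 KO library 56 classical monocyte-like cells (1.28%) and all 8 neutrophil-like cells held at least 3.

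The other genes of the granule programme were read from lists of related genes in the classical monocyte-like cells, where 7.31% of all genes were at least 2-fold higher. Of 14 counted genes of the secondary and tertiary granules outside the members, 3 were at least 2-fold higher, 1 lower and 10 between, with a median log2 ratio of 0.15. The 4 with the most UMIs were Lyz2, lysozyme (ratio 1.03), Chil3, a chitinase-like protein (3.07), and Cybb and Cyba, the membrane subunits of the NADPH oxidase (0.723 and 1.18). Most of these genes are transcribed in monocytes as well. Hp, haptoglobin, and Pglyrp1, which binds peptidoglycan, were the other higher genes, with ratios of 2.59 and 3.47, named after their values were seen. Primary granule genes differed more. Of 9 counted, 7 were at least 2-fold higher, 1 lower and 1 between, with a median log2 ratio of 1.62. Prtn3 had 214 against 21.3 CPM (10.1-fold higher), Serpinb1a, a protease inhibitor, 3.25-fold higher, Ctsc, which activates the granule proteases, a ratio of 1.35, and Cd63, a granule membrane protein, 0.476. Elane, named after its values were seen, had 656 UMIs against none. Ms4a3 and Prss57, also counted among the 7, had 34 and 46 UMIs against none, at 0.788 and 1.07 CPM below the 1.56 CPM of 3 GFI1 WT UMIs. With these set against 3 UMIs, the median log2 ratio of the list is 1.09, the value of Ctsg, cathepsin G.

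Of 9 counted regulators of granule genes, 2 were at least 2-fold higher and 7 between, with a median log2 ratio of 0.05. Cebpb, Runx1, Spi1 and Stat3, the 4 with the most UMIs, had ratios of 0.972, 0.684, 1.2 and 0.685. The higher genes were Cebpe, at 18.4 against 2.59 CPM (7.10-fold higher, on 5 GFI1 WT UMIs), named after its values were seen, and Gfi1. Gfi1 had 57 UMIs against none, or 1.32 CPM, which is below what 3 UMIs would give in the GFI1 WT cells, so no direction is read for it. In the 8 neutrophil-like cells, where 19.1% of all genes were at least 2-fold higher and 25.8% lower, 1 of 8 counted regulators was at least 2-fold higher and 4 were lower, and 9 of 16 other secondary and tertiary granule genes were higher and none lower.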

How the data were processed

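The authors sorted live lung cells of adult mice and prepared 10x Genomics 3′ libraries, sequenced on an Illumina instrument. The deposited matrices hold raw UMI counts per gene and cell from Cell Ranger 9.0.1, on GRCm39 (mm39) per the submitters' processing notes, with 18 antibody tags beside the 33696 genes. The methods state 2 samples per genotype, of which 1 each is analysed here. The libraries held 10700 (GFI1 KO) and 19515 (GFI1 WT) cells and 116825535 and 162599284 gene UMIs.

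The study's own limits were applied to cells: at least 500 UMIs, at least 200 genes, and a mitochondrial share of at most 20%. The 9538 ribosomal, mitochondrial and Gm-named genes (18.9% and 16.4% of UMIs) were left out of the totals behind CPM. Cells of both libraries were clustered together in scanpy 1.11.5 (2000 variable genes, 50 components, 15 neighbours, leidenalg 0.10.2 at resolution 0.8) without the members and other granule genes, which gave 37 clusters. A cluster was named from markers: at least 3 markers raised 1.5-fold, with thresholds set after seeing the clusters and revised once. In all, 15 clusters (717 and 2565 cells) stayed unnamed. Scrublet called 346 (3.30%) and 1137 (5.88%) cells doublets, which were kept.

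Levels have exact Poisson intervals, ratios exact conditional binomial intervals and shares exact Clopper-Pearson intervals (scipy 1.17.1). With 1 library per group no test was run. Genes were counted as higher or lower at a 2-fold difference, among genes with at least 30 UMIs in both libraries together, with 0.5 UMIs added to each. Log2 ratios of single genes and medians of lists carry this addition, and those of the members' sum do not. Shares were computed after thinning each cell to 1500 UMIs, leaving out shallower cells. From each list the 4 genes with the most UMIs and Gfi1 are named. The members, lists and comparisons were chosen with earlier results of these data known. The scripts were checked on simulated data.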

Additional observations from a re-analysis of the deposited data

How the results depend on the processing

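All values are from 1 library per genotype, so no alternative measures variation between mice. No paired analysis was possible because each genotype has 1 library and no test was run. For the members' sum over all cells, the log2 ratio of GFI1 KO to GFI1 WT was 1.90. It was 1.86 with all genes in the total, 2.11 without called doublets, 1.01 without Lcn2 and 2.11 without the GFI1 WT droplet with most Camp. Camp reversed to 1.51 without doublets and to 1.55 without that droplet. In neutrophil-like cells the sum (3.77) was 3.70 without doublets, 3.49 without Lcn2, 3.30 without the highest GFI1 KO cell, 3.57 in cells of at least 5000 UMIs and 4.2 in cells chosen by Csf3r, Cxcr2 and Retnlg. In classical monocyte-like cells it (3.22) was 2.86 with at least 1000 UMIs a cell, 2.03 without Lcn2, 3.63 at resolution 0.5 and 2.21 with granule genes in the clustering. Clustering anew changed which cells bore this name. With at least 1000 UMIs a cell the class held 2237 GFI1 KO and 56 GFI1 WT cells, and at resolution 0.5 it held 4904 and 429. With granule genes in the clustering it held 2994 and 36, against 4369 and 267 in the main setting. Ngp had no UMI in the 267 GFI1 WT cells of the main class, and 40 of its 44 GFI1 KO UMIs there lay in 1 cell. Its value there rests on the added 0.5 UMI, so no direction is read. It changed sign to -2.31 without doublets, to -0.42 with granule genes in the clustering and to -1.59 in cells chosen by Ly6c2, Ccr2 and Csf1r. In background cells the sum (0.85) was 4.15 with at least 1000 UMIs a cell, 4.22 at resolution 0.5, 3.98 with granule genes in the clustering and 4.19 with each library clustered on its own. In the first 3 of these, 2017 of 2090, 2031 of 2104 and 1951 of 2025 GFI1 KO member UMIs lay in cells of the cycling cluster, which the names then placed in this class. For the last, the cause was not tested. Clustered on their own, the GFI1 KO library gave no neutrophil-like and the GFI1 WT library no classical monocyte-like class, so these have no value. The GFI1 KO library on its own gave 1044 classical monocyte-like cells, against 4369 when both were clustered together. The share of cells with at least 3 members was 0.364% (GFI1 KO) and 0.3555% (GFI1 WT) at 1000 UMIs, 2.01% and 1.18% at 3000 UMIs, and 9.36% and 2.23% without thinning. For at least 2 members it was 6.01% and 3.45%, and for at least 4 members 0.116% and 0.0423%. The droplet, the highest cell, the depth limit of 5000 UMIs and the choices by marker genes were chosen after seeing the data. For single members, 25 of 32 values in all cells, 16 of 21 in background, 50 of 62 in classical monocyte-like and 56 of 70 in neutrophil-like cells moved by less than the counting interval.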

Other observations

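Binding partners and receptors of the members were also counted in classical monocyte-like cells. Of 5 with enough UMIs, 1 was at least 2-fold higher under the GFI1 KO label, 1 lower and 3 between, with a median log2 ratio of 0.39. Lrp1, a receptor for lactoferrin and protease complexes, had a ratio of 1.31, Timp2, a metalloproteinase inhibitor, 0.694, and Fpr2, a receptor for the cathelicidin peptide, 1.66. The higher gene was the formyl peptide receptor Fpr1 (4.16) and the lower one the metalloproteinase inhibitor Timp1, with 31 and 10 UMIs.

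Lcn2 was also counted in clusters without a name. A cycling cluster led by Top2a and Birc5 had 330 CPM of Lcn2 in 277 GFI1 KO cells and 3.94 CPM in 408 GFI1 WT cells. It held no Ltf or Ngp UMI under the GFI1 KO label. Its best marker match, T cells with 5 of 8 markers, was too low for a name. The kinds of cell in it were not told apart, so its levels may not compare like cells. A cluster with plasma and B cell genes had 283 and 11 CPM of Lcn2, and 168 and 16.3 CPM of Mmp8. Of its cells 17.3% were called doublets, against 0.412% and 0% in the named B-like clusters. B-like cells had 5.04 and 0.107 CPM of Lcn2. The part of doublets in the levels of this cluster was not tested.

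Across 25 profiles of a class in 1 library (at least 20 cells each, so without the GFI1 KO neutrophil-like cells), the mean log2(CPM + 1) of the members was most like that of Ccr1 (Pearson r = 0.737), Arg2 (0.728), Il1rap (0.727), Gabbr2 (0.727) and Gtsf2 (0.724), among 14542 genes. Among the members, Camp and Ngp were closest (0.974), with their highest values in GFI1 WT interstitial macrophage-like cells (237 and 174 CPM), where 1 droplet called a doublet held every UMI, and Ltf and Fcnb farthest apart (-0.0434). The profiles share 2 libraries, so no test is given.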
